A study of Mus musculus with 12 samples.

Results

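The genes described here are 9 macrophage and monocyte genes of mouse colon, Cd68, Ccr2, Cx3cr1, Fcgr1, Chil3, Arg1, Marco, Cd300ld and Fgr, out of 991 features listed for the whole series. They were taken by name, including those with low values. All 9 are among the 912 features listed for the DSS and Control libraries. Chil3, Cd300ld and Fgr are also among the 95 features listed for the high-dose libraries, and 0 of the 9 are among the 8 features of the low-dose libraries.

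The series holds 12 colon RNA libraries, 3 in each of 4 groups, and 3 groups are used here. BXD_H mice received 2.5% dextran sulfate sodium (DSS), a polysaccharide that damages the lining of the colon, for 5 days and then water for 5 days, over 3 cycles, and were given Banxia Xiexin Decoction, a herbal mixture, at 15.2 g/kg per day. DSS mice received the same 3 cycles without the decoction, and Control mice received ddH2O only. The labels used here state no strain, sex or age, nor whether each library comes from its own mouse. A p-value here therefore reflects variation among these libraries, part of which could be technical. Values are FPKM, a fragment count corrected for gene length and library total, so levels of different genes can be set side by side. Recovered library totals, in units of 1000000 fragments, were 12.4 to 18.2 for BXD_H, 15.4 to 19.2 for DSS and 14.4 to 16.7 for Control. For BXD_H replicate 3 and Control replicate 1 a total 2 times as large also fitted, so fragment counts there are less certain. The description text of DSS replicate 3 and Control replicate 3 names another group than their titles do. Groups followed the titles. With groups from that text instead, 0 of the 9 genes passed the test of DSS against Control described below. The colonocyte genes Car4 and Slc26a3 were abundant in every DSS and Control library of this tissue, at 35.9 FPKM or more.

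Blood monocytes enter the gut wall continuously and mature there into macrophages, and more of them enter when the lining is injured. Ccr2 lets monocytes leave the bone marrow and follow the chemokine Ccl2, whereas Cx3cr1, the receptor of fractalkine, is carried at high levels by resident gut macrophages. Cd68 is a lysosomal glycoprotein of macrophages, Fcgr1 is the high-affinity receptor for IgG, and Marco is a scavenger receptor that binds bacteria. Arg1 and Chil3 are classic genes of alternatively activated mouse macrophages, Cd300ld is an activating receptor of myeloid cells, and Fgr is a Src family kinase of myeloid cells.

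By GENCODE release M21 on GRCm38, the build that mm10 names, each of the 9 is a protein-coding gene. Cd68 lies at chr11:69664213-69666153 and Cd300ld at chr11:114982274-114989922, both on the minus strand. Ccr2 lies at chr9:124101950-124113557 on the plus strand and Cx3cr1 at chr9:119901616-120069879 on the minus strand. Fcgr1 lies at chr3:96282909-96293969 and Chil3 at chr3:106147554-106167564, both on the minus strand. Arg1 lies at chr10:24915221-24927484 and Marco at chr1:120474538-120505024 on the minus strand, and Fgr at chr4:132974095-133001910 on the plus strand. The sources used here do not say which exons each FPKM covers.

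Promoter sequence, from RefSeq on GRCm38.p6, was matched for 8 of the 9 genes. For each of the 8, all 250 bases before the RefSeq start were searched on both strands for GAGGAA, the core of the PU box bound by Spi1 (PU.1), the master transcription factor of macrophages. It was present in 4 of the 8 (Cd68, Fcgr1, Cd300ld and Marco), against 23.3% of 32851 promoters. The letters TTNNGNAA, a common form of the C/EBP site used in myeloid genes, were present in 6 of the 8 (all but Cx3cr1 and Fcgr1) and in 36.8% of all promoters. For Ccr2 and Cx3cr1 nearly all or all of these bases lie inside longer transcripts of the same gene in GENCODE, so they are not shown. The sequences below are those of 2 general macrophage genes and of the 3 genes also listed for BXD_H, read 5′ to 3′ on the gene's strand and ending before the annotated start. The Cd300ld window is shortened to 214 bases to stay clear of another start of that gene. Capitals mark GAGGAA or its reverse complement TTCCTC.
Cd68 (chr11:69666171-69666420, minus): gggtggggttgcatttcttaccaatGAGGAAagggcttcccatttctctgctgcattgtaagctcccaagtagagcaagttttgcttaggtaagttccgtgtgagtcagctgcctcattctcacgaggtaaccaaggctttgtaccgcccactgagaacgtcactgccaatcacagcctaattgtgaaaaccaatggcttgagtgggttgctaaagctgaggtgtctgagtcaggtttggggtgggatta
Fcgr1 (chr3:96293970-96294219, minus): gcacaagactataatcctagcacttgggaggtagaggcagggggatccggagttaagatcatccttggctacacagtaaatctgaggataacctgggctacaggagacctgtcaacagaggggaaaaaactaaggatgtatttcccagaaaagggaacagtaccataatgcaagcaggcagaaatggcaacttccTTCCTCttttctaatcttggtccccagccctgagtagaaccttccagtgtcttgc
Cd300ld (chr11:114989923-114990136, minus): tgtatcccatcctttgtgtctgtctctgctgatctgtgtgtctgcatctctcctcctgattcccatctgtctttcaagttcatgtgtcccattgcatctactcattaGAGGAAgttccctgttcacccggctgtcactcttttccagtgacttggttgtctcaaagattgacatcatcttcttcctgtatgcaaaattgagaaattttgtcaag
Chil3 (chr3:106167565-106167814, minus): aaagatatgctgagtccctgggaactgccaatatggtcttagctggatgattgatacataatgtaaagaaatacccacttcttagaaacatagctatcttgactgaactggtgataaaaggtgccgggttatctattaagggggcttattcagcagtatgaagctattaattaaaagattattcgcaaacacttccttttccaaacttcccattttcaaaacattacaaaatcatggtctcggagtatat
Fgr (chr4:132973845-132974094, plus): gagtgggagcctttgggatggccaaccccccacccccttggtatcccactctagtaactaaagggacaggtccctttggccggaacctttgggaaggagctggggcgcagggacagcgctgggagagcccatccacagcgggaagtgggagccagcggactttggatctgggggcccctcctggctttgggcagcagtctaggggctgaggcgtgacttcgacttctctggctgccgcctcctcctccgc
The motif stands once each in the Cd68, Fcgr1 and Cd300ld windows, while the windows of Chil3 and Fgr hold none in these letters. A match describes the letters only.

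The comparison of DSS with Control asks how these genes stood in the colon after the colitis course. In every one of the 9 the lowest DSS library lay above the highest Control library. That separation was the rule in the files used here: 95.2% of the 912 listed features did not overlap between the groups, and 77.4% did so with DSS higher. By limma on log2(FPKM + 1) with Benjamini-Hochberg adjustment, Cd68, Ccr2, Cx3cr1, Fcgr1, Cd300ld and Fgr rose, 6 of the 7 genes that passed a filter of FPKM 1 in at least 3 libraries, though the last 2 turn negative when libraries are centred as described below. Of 576 features tested, 99.1% were called, 79.2% higher and 20% lower in DSS, so a share of 6 in 7 is near that of all features. The share at an unadjusted p under 0.05 was 99.1% as well. The list appears to be a selection of features that differ between the groups, so these calls are not independent evidence. In bulk tissue more cells of a type and more RNA per cell cannot be told apart.

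Cd68 had the highest level of the 9, at 31.58, 25.59 and 24.82 FPKM in the DSS libraries and 11.17, 14.57 and 10.49 FPKM in the Control libraries. The DSS mean was 2.26 times the Control mean, and the log2 change was 1.12 (SE 0.28, limma adjusted p = 0.00592). DSS replicate 1 was the highest library and the groups stood well apart.

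Cx3cr1 stood second, at 8.12, 7.89 and 7.16 FPKM in DSS libraries and 3.52, 4.01 and 2.90 FPKM in Control libraries. Its log2 change was 0.97 (SE 0.22, limma adjusted p = 0.00479), and its DSS libraries lay closer together than those of any other member relative to their mean. Ccr2 stood at 4.96, 6.04 and 4.82 FPKM in DSS libraries and 1.54, 2.18 and 1.66 FPKM in Control libraries, and its log2 change was 1.17 (SE 0.20) with a limma adjusted p of 0.00308. The DSS mean was 2.94 times the Control mean for Ccr2 and 2.22 times for Cx3cr1. Ccr2 was highest in DSS replicate 2 and Cx3cr1 in DSS replicate 1.

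Fcgr1 stood at 3.06, 3.74 and 2.58 FPKM in DSS libraries and 1.18, 0.88 and 1.00 FPKM in Control libraries. Its DSS mean was 3.07 times its Control mean (log2 change 1.02, SE 0.18, limma adjusted p = 0.00328). The Control values rest on about 44, 38 and 42 fragments. Cd68, Cx3cr1, Ccr2 and Fcgr1 passed the threshold without any single DSS or Control library, and also without DSS replicate 3 and Control replicate 3 together.

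**Figure D1:**
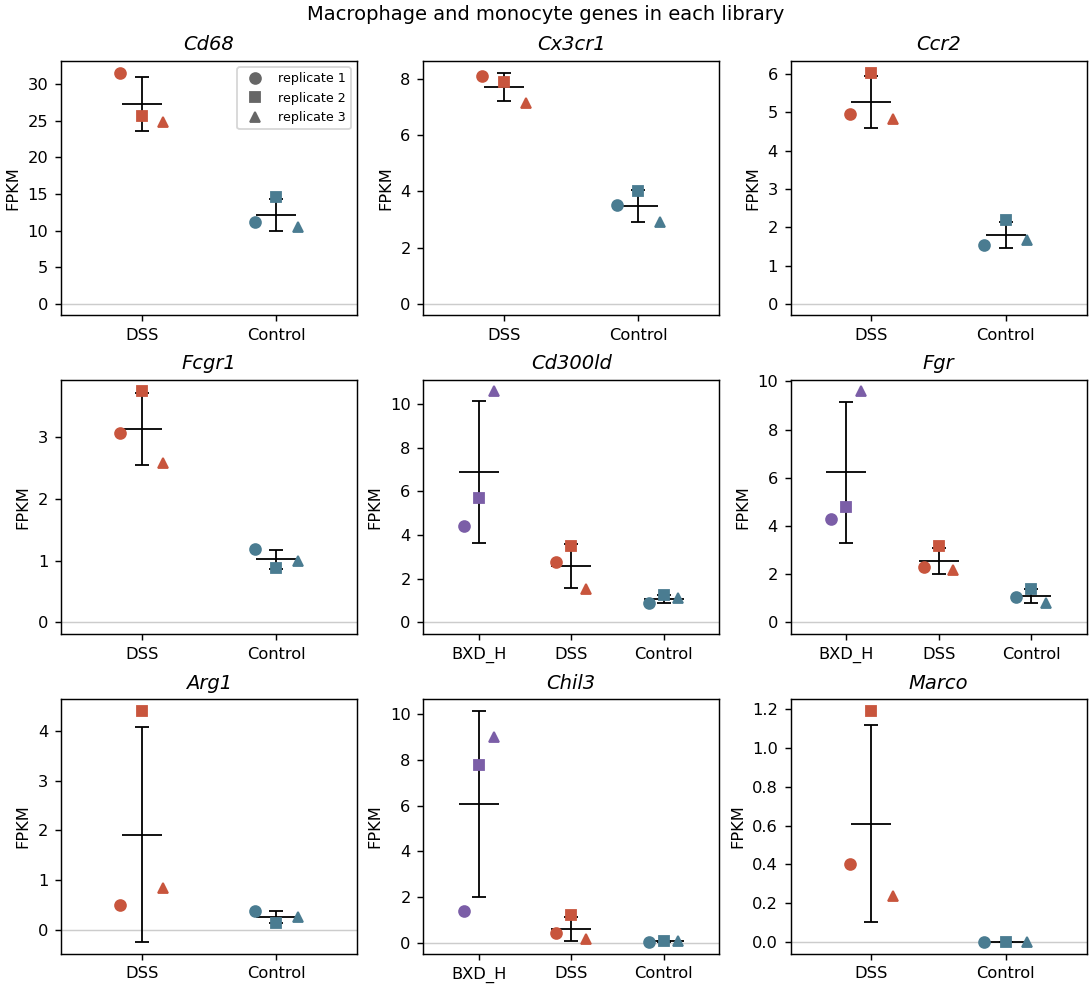
FPKM of the 9 genes, 1 panel a gene, each point a library (marker shape is the replicate number), bars the mean and SD of 3 libraries. The BXD_H group is drawn for the 3 genes listed for it. In each panel the DSS points lie above the Control points, and Arg1, Chil3 and Marco are spread most within DSS relative to their means.

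Cd300ld and Fgr had nearly equal levels. The DSS mean was 2.38 times the Control mean for Cd300ld and 2.34 times for Fgr, close to Cd68 and Cx3cr1. Cd300ld stood at 2.77, 3.48 and 1.52 FPKM in DSS libraries and 0.89, 1.25 and 1.12 FPKM in Control libraries (log2 change 0.75, SE 0.30, limma adjusted p = 0.0301). DSS replicate 3 was only slightly above Control replicate 2. Fgr stood at 2.30, 3.16 and 2.16 FPKM in DSS libraries and 1.06, 1.40 and 0.80 FPKM in Control libraries (log2 change 0.76, SE 0.27, limma adjusted p = 0.0177).

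Both calls were lost in some fits with libraries left out. Cd300ld did not pass without DSS replicate 1 (log2 change 0.69), DSS replicate 2 (0.57) or Control replicate 1 (0.68). Nor did it pass without Control replicate 2 (0.80) or Control replicate 3 (0.76). In those 2 fits the change was no smaller than with all libraries (0.75), so they do not show that the call rests on either library. Cd300ld passed without DSS replicate 3 (0.98, limma adjusted p = 0.0119). It also passed when DSS replicate 3 and Control replicate 3 were both dropped (0.99, limma adjusted p = 0.0325). Fgr did not pass without DSS replicate 2 (0.64), without Control replicate 3 (0.66) or without the 2 libraries of conflicting description (0.74). Fitted on the DSS and Control libraries alone, both passed (adjusted p = 0.0112 for Cd300ld and 0.00537 for Fgr).

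Chil3, Arg1 and Marco had the lowest levels of the 9. Chil3 stood at 0.44, 1.22 and 0.19 FPKM in DSS libraries and 0.04, 0.11 and 0.08 FPKM in Control libraries, about 11, 33 and 6 fragments against 1, 3 and 2. The groups did not overlap, but the log2 change of 0.54 (SE 0.45) did not pass (limma adjusted p = 0.258), and without DSS replicate 2 it was 0.28. Chil3 entered the test through the BXD_H libraries, since among the DSS and Control libraries it reached FPKM 1 only in DSS replicate 2. Fitted on the DSS and Control libraries alone, with the filter still set over all 12 libraries, it passed (limma adjusted p = 0.0328). It also passed with a pseudocount of 0.1 (log2 change 1.76, limma adjusted p = 0.0290). In both fits it still entered through the BXD_H libraries, so these passes add no support. Without a filter it did not pass (limma adjusted p = 0.278).

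Arg1, an enzyme that breaks down arginine, stood at 0.49, 4.40 and 0.84 FPKM in DSS libraries and 0.37, 0.13 and 0.25 FPKM in Control libraries. Most of the difference lies in DSS replicate 2, with about 163 fragments against 17 and 36 in DSS replicates 1 and 3. The mean difference on the log2(FPKM + 1) scale was 0.98 with all libraries and 0.41 without DSS replicate 2; for Marco these were 0.64 and 0.40.

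Marco stood at 0.40, 1.19 and 0.24 FPKM in DSS libraries, about 12, 38 and 9 fragments, and was listed at 0 in each Control library. With 3 fragments as the limit, a listed 0 allows up to 0.108, 0.0935 and 0.0960 FPKM in Control replicates 1, 2 and 3, for counting error only. Arg1 and Marco were below the filter, each reaching FPKM 1 in 1 library. For each of them the exact permutation test over libraries gave a two-sided p of 0.1, the smallest that 3 against 3 allows. In a fit with no filter, Marco passed (limma adjusted p = 0.0141) and Arg1 did not.

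The 4 abundant genes kept their order. In DSS libraries Cd68 averaged 27.3 ± 3.70 FPKM, Cx3cr1 7.72 ± 0.501, Ccr2 5.27 ± 0.668 and Fcgr1 3.13 ± 0.583 FPKM (SD, n = 3), with no overlap between neighbours. Fcgr1, Cd300ld (2.59 ± 0.992), Fgr (2.54 ± 0.541) and Arg1 (1.91 ± 2.16 FPKM) overlapped one another in DSS, as did Chil3 (0.617 ± 0.537) and Marco (0.610 ± 0.509 FPKM). In Control libraries Cd68 averaged 12.1 ± 2.19 FPKM, Cx3cr1 3.48 ± 0.556 and Ccr2 1.79 ± 0.3402 FPKM, again without overlap. Below them Cd300ld (1.09 ± 0.182), Fgr (1.09 ± 0.301) and Fcgr1 (1.02 ± 0.151 FPKM) could not be separated in Control, and Arg1 (0.250 ± 0.120 FPKM) was above Chil3 (0.0767 ± 0.0351 FPKM).

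Ratios within a library do not depend on the library total. The Ccr2 to Cx3cr1 ratio was 0.611, 0.766 and 0.673 in DSS libraries and 0.438, 0.544 and 0.572 in Control libraries. It was higher in each DSS library, with the smallest p that the design allows (exact permutation test, two-sided, p = 0.1, and 0.5 after Benjamini-Hochberg adjustment over the 10 ratio tests made). The Cx3cr1 to Cd68 ratio overlapped between the groups, at 0.285 ± 0.0258 in DSS and 0.289 ± 0.0227 in Control (SD, n = 3, exact permutation p = 0.9). Ratios to Cd68 also overlapped for Ccr2 (exact permutation p = 0.2), Fcgr1 (0.3), Cd300ld (1.0) and Fgr (1.0). A ratio shows unequal change only, and none of these p-values can pass 0.05 in this design.

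**Figure D2:**
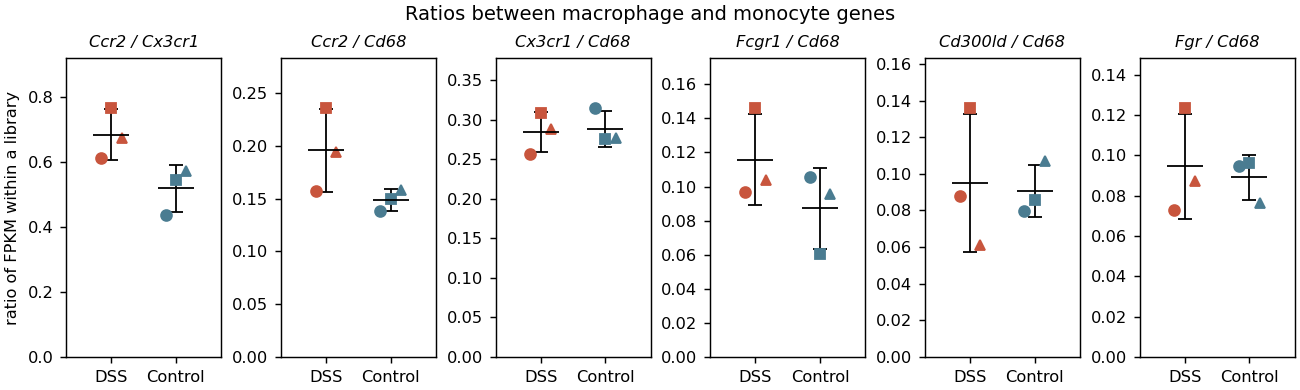
Ratio of 2 genes' FPKM within each DSS and Control library (points, marker shape is the replicate number), with mean and SD of 3 libraries. The Ccr2 to Cx3cr1 ratio is higher in every DSS library, and the other 5 ratios overlap between the groups.

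DSS replicate 2 was the highest DSS library for 7 of the 9 members, all but Cd68 and Cx3cr1. The same library was highest for 483 of the 912 listed features and for 294 of the 456 that rose. It was also highest for all 6 listed neutrophil markers of a list of 13, which summed to 7.56 to 50.5 FPKM in DSS libraries and 1.54 to 1.77 FPKM in Control libraries, Cxcr2 being at 0 in Control replicates 1 and 2. S100a8, a calcium-binding protein of neutrophils, stood at 2.90, 24.43 and 1.50 FPKM in DSS libraries and 0.40, 0.26 and 0.27 FPKM in Control libraries. Arg1, Chil3 and Marco were each highest in the same DSS library as S100a8. All 6 listed fibroblast markers were highest in DSS replicate 2 as well. Listed markers of T and NK cells (6 of 13) summed to 21.6 to 30.6 FPKM in DSS and 8.64 to 11.7 FPKM in Control, and fibroblast markers (6 of 8) to 375 to 737 FPKM in DSS and 130 to 158 FPKM in Control. Colonocyte markers (4 of 11) summed to 133 to 516 FPKM in DSS and 853 to 1234 FPKM in Control. All tested markers of B and plasma cells (5), dendritic cells (2), mast cells and eosinophils (2) and endothelium (1) rose too. The part of these other cell types in the results above was not tested.

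Further macrophage and monocyte markers moved in the same direction. Of a list of 29, 5 were listed and 3 tested, and all 3 rose: Spi1, the transcription factor PU.1 (log2 change 1.00), Mpeg1, a pore-forming protein of phagocytes (1.21), and Aif1, an actin-binding protein of macrophages (0.96). Their median log2 change was 1.00, that of the 7 tested members 0.97 and that of all 576 tested features 0.96. The other 2, below the filter, were Trem2, a lipid receptor, at 1.60, 1.25 and 0.97 FPKM in DSS and 0.35, 0.45 and 0.31 FPKM in Control, and Clec4d, a C-type lectin, at 1.14, 8.31 and 0.98 FPKM in DSS and 0.57, 0.38 and 0.31 FPKM in Control. Clec4d was highest in DSS replicate 2, as Arg1 was, and Trem2 in DSS replicate 1, as Cd68 was. The remaining 24 markers of that list were not analysed here.

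Partners of the members were tested in the same fit. All 5 tested genes of the Fc gamma receptor list of 14 rose, which include Fcgr1 and Fgr: Fcer1g, the signalling chain that Fcgr1 needs, averaged 26.1 ± 4.69 FPKM in DSS and 11.2 ± 1.503 FPKM in Control (log2 change 1.15), and Fcgr4, another IgG receptor, 7.54 ± 2.30 FPKM in DSS and 3.13 ± 0.588 FPKM in Control (1.03). Lcp2, an adaptor of immune receptor signalling, changed by 0.97. Of 13 attractants and growth factors 2 were tested and both rose: Ccl2, the main ligand of Ccr2 (log2 change 1.26), and Il34, a ligand of the receptor that keeps macrophages alive (0.96). Ccl3, below the filter, stood at 1.10, 5.10 and 0.75 FPKM in DSS libraries and 0.36, 0.08 and 0.40 FPKM in Control libraries.

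All 5 tested chemokine receptor genes of a list of 21 rose, Ccr2 and Cx3cr1 among them, with Ccr1, a receptor of monocytes and neutrophils, at 7.71 ± 2.14 FPKM in DSS and 2.78 ± 0.612 FPKM in Control (log2 change 1.19). In the CD300 family list of 10, 3 genes were tested and all 3 rose: the inhibitory receptors Cd300a (log2 change 0.93) and Cd300lf (0.77), and Cd300ld. Of 13 scavenger receptor genes 3 were tested and rose, namely Cd68, Clec7a, the beta-glucan receptor (1.59), and Colec12, a collectin (1.06). With nearly every tested feature called, a list whose tested members all rose does not stand out from the rest.

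All 4 tested genes of classical activation, from a list of 15, rose: Nos2 (log2 change 1.80), Tnf (1.10), Ptgs2 (1.50) and Il1b (2.39). Il1b stood at 7.14, 32.48 and 1.07 FPKM in DSS libraries and 0.80, 0.28 and 0.71 FPKM in Control libraries. Most of its DSS mean thus lies in replicate 2, and replicate 3 was only slightly above Control. Ptgs2 averaged 7.13 ± 4.30 FPKM in DSS and 1.56 ± 0.615 FPKM in Control. Of 12 alternative activation genes 4 were listed and 2 tested, Chil3, which did not pass, and Retnla, which fell by 2.63 on the log2 scale (limma adjusted p = 0.00259). Retnla, a resistin-like secreted protein, stood at 2.92, 0.30 and 2.35 FPKM in DSS libraries and 12.18, 21.45 and 12.65 FPKM in Control libraries. It was thus lower in DSS while its list mates Arg1 and Chil3 had higher values there, and it was lowest in DSS replicate 2, where Arg1 and Chil3 were highest. The fourth listed gene, Pdcd1lg2, a ligand of the receptor PD-1, was below the filter, at 0.89, 0.55 and 0.61 FPKM in DSS libraries and 0.32, 0.12 and 0.22 FPKM in Control libraries, and was also lowest of the DSS libraries in replicate 2. Of 8 arginine metabolism genes 2 were tested and rose, Nos2, which uses arginine to make nitric oxide, and Arg2, the mitochondrial arginase (1.22). Arg2 averaged 8.35 ± 2.20 FPKM in DSS and 2.997 ± 0.803 FPKM in Control, above Arg1 in each of these 6 libraries.

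**Figure D3:**
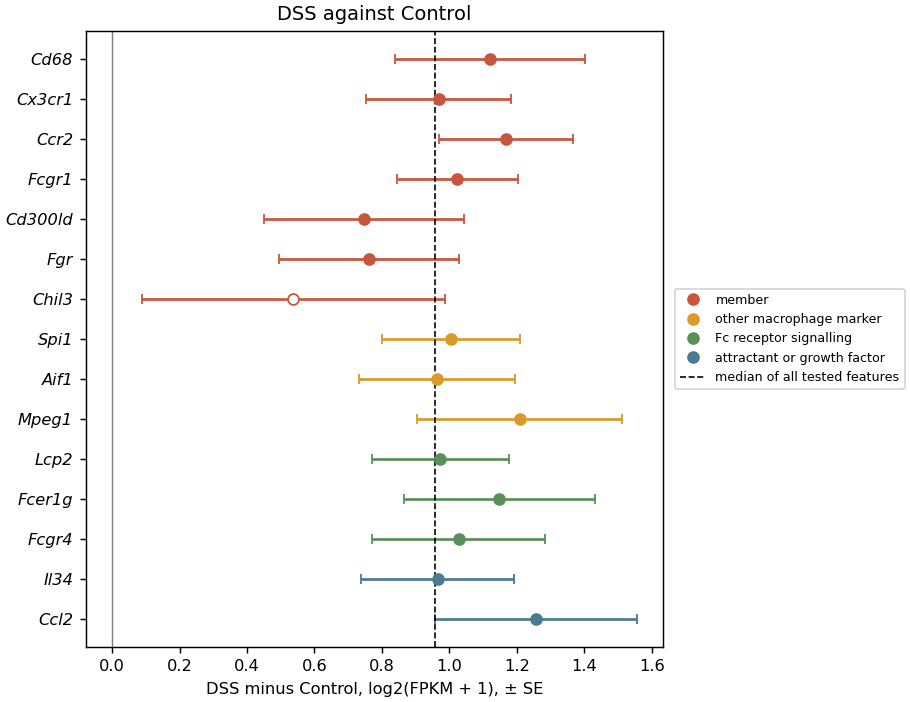
Log2 change of DSS against Control on the log2(FPKM + 1) scale with its SE, for the 7 tested members and for tested genes of 3 related lists. Filled points passed the threshold of 0.05 and the open point, Chil3, did not. The dashed line is the median of all 576 tested features, 0.96, on both sides of which the members lie. No centring was applied, under which Cd300ld, Fgr and Chil3 turn negative on this scale, which understates changes of low genes.

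Profiles over the 6 DSS and Control libraries were compared by the root mean square difference of log2(FPKM + 1) after subtracting each gene's own mean, among 575 other tested features. Nearest to Cx3cr1 were Sla, an adaptor of leukocytes (difference 0.0308), and Prex1, a Rac activator of myeloid cells (0.0660). Nearest to Ccr2 were Tlr13, a receptor for bacterial RNA (0.0470), and Loxl1, a cross-linker of elastin (0.0531). Nearest to Cd68 were an unnamed feature, ENSMUSG00000120432 (0.0751), and Sirpa, an inhibitory receptor of macrophages (0.0766). A small difference means that the size of the change and the spread within groups are alike on that scale. Since it understates changes of low genes, fold changes of a low gene and of its nearest profile can still differ.

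For Fcgr1 the nearest were Sulf2, a heparan sulfate sulfatase (0.0832), and Spi1 (0.0867), and for Fgr the noncoding C230035I16Rik (0.0644) and Col6a5, a collagen chain (0.0746). For Cd300ld they were St3gal1, a sialyltransferase (0.0965), and Slc15a3, a peptide transporter of lysosomes (0.0975), and for Chil3 Emilin2, a matrix glycoprotein (0.0886), and Wnt4, a secreted signalling protein (0.1003). Leukocyte genes and matrix genes both appear among the nearest profiles.

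On the log2(FPKM + 1) scale, centring decides the sign of some of these changes. Centring each library on the median of its listed features lowered every DSS against Control change by 0.81 on the log2 scale. Since the list holds mostly rises, such centring removes rises by construction. After it 0 members passed. The changes of Ccr2 (0.36), Cd68 (0.31), Fcgr1 (0.22), Arg1 (0.17) and Cx3cr1 (0.16) kept their sign. Those of Fgr (−0.04), Cd300ld (−0.06), Marco (−0.16) and Chil3 (−0.27) turned negative. The shift was taken off after the pseudocount of 1, which understates changes of low genes. As ratios of means, Fgr (2.34), Cd300ld (2.38) and Chil3 (8.04) rose no less than Cd68 (2.26) and Cx3cr1 (2.22). However libraries are scaled, Marco, at 0 in each Control library, cannot come out lower in DSS. The negative signs thus do not show lower levels in DSS.

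The comparison of BXD_H with DSS asks how the high dose of the decoction left these genes, for the 3 members listed in both sets. Chil3, Cd300ld and Fgr rose in BXD_H above DSS, though Fgr turns slightly negative under centring. That centring used the median of the 17 features tested in both groups. Their median log2 change, 0.97, is that of Fgr itself, so Fgr came to about 0 largely by construction. For each of the 3 members the lowest BXD_H library lay above the highest DSS library. Of the 19 features listed in both, 94.7% did not overlap and 73.7% did so with BXD_H higher. Of 17 tested, 94.1% were called and 70.6% were called higher in BXD_H. The share at an unadjusted p under 0.05 was 94.1%, and with 3 genes nothing is read from 3 of 3. The BXD_H list too appears to be a selection.

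Chil3 stood at 1.42, 7.78 and 8.98 FPKM in BXD_H libraries, about 40, 231 and 182 fragments, and at 0.44, 1.22 and 0.19 FPKM in DSS libraries. The log2 change was 1.93 (SE 0.45, limma adjusted p = 0.00376), and the BXD_H mean of 6.06 ± 4.06 FPKM was 9.83 times the DSS mean. Chil3 passed the filter through these BXD_H libraries, where it is high, so the call is a description and adds no support. BXD_H replicate 1 stood near the highest DSS library, while the other two stood far above it.

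Cd300ld stood at 4.43, 5.69 and 10.59 FPKM in BXD_H libraries and 2.77, 3.48 and 1.52 FPKM in DSS libraries (log2 change 1.10, SE 0.30, limma adjusted p = 0.00652). Fgr stood at 4.30, 4.78 and 9.59 FPKM in BXD_H libraries and 2.30, 3.16 and 2.16 FPKM in DSS libraries (log2 change 0.97, SE 0.27, limma adjusted p = 0.00652). BXD_H replicate 3 was the highest library for all 3 genes. Without it the log2 change was 0.79 for Cd300ld, 0.66 for Fgr and 1.56 for Chil3, each still past the threshold. Fitted on the BXD_H and DSS libraries alone, each passed closer to the threshold. The limma adjusted p was then 0.0466 for Cd300ld, 0.0488 for Fgr and 0.0269 for Chil3. With groups from the description text Cd300ld (limma adjusted p = 0.0870) and Fgr (0.0744) did not pass, and Chil3 did. The Fgr to Cd300ld ratio was 0.971, 0.840 and 0.906 in BXD_H libraries and 0.830, 0.908 and 1.42 in DSS libraries, which overlap (exact permutation test, two-sided, p = 0.8). The Chil3 to Cd300ld ratio was 0.321, 1.37 and 0.848 in BXD_H libraries and 0.159, 0.351 and 0.125 in DSS libraries, which overlap as well (exact permutation p = 0.2). In Control libraries it was 0.0449, 0.0880 and 0.0714, below each DSS library (exact permutation p = 0.1, and 0.5 after adjustment over the 10 ratio tests). These Control ratios rest on only about 1, 3 and 2 fragments of Chil3.

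Against Control, BXD_H was higher in Chil3 (log2 change 2.47), Fgr (1.73) and Cd300ld (1.85), with limma adjusted p of 0.000350, 0.000149 and 0.000158. Since Chil3 passed the filter through its high BXD_H libraries, its call here too is a description and adds no support. The BXD_H mean was 6.35 times the Control mean for Cd300ld and 5.73 times for Fgr. Of the 17 features tested 70.6% were called, all of them higher in BXD_H, 82.4% had an unadjusted p under 0.05, and 73.7% of 19 did not overlap. This comparison shares its BXD_H libraries with the one above and its Control libraries with the first. After centring on the median of the 17 tested features 0 of the 3 passed in either comparison. With DSS as the reference Chil3 kept 0.95, Cd300ld 0.12 and Fgr turned to −0.02. With Control as the reference Chil3 kept 0.62, Cd300ld (−0.000627) came to about 0 and Fgr (−0.12) turned negative.

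**Figure D4:**
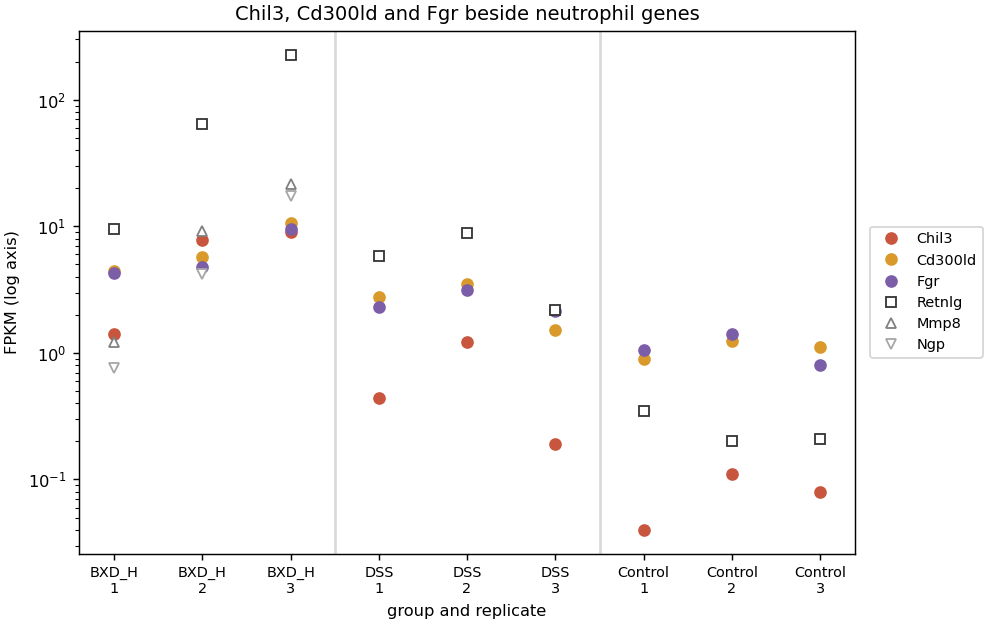
FPKM on a log axis of Chil3, Cd300ld and Fgr (filled points) and of the neutrophil genes Retnlg, Mmp8 and Ngp (open points) in each BXD_H, DSS and Control library, the last 2 neutrophil genes having values for BXD_H only. Chil3, Cd300ld, Fgr and Retnlg are higher in each BXD_H library than in any DSS library, and all 6 genes are highest in BXD_H replicate 3.

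Among the listed neutrophil markers only Retnlg could be compared between BXD_H and DSS, and it rose as these 3 members did. That was common: 70.6% of the 17 features tested were called higher in BXD_H, the plasma cell marker Ighg1 (log2 change 2.28) among them. Of the 13 neutrophil markers 3 are listed for BXD_H, and none of them is at 0 there. Retnlg, a resistin-like protein of neutrophils and the only one of the 3 with values in all 3 groups, stood at 9.50, 64.50 and 226.18 FPKM in BXD_H libraries and 5.80, 8.92 and 2.20 FPKM in DSS libraries (BXD_H against DSS log2 change 3.17, SE 0.86, limma adjusted p = 0.00652). The neutrophil granule genes Mmp8 (1.22, 9.25 and 21.71 FPKM) and Ngp (0.76, 4.23 and 17.46 FPKM) had the same order over the BXD_H libraries, lowest in replicate 1 and highest in replicate 3. Chil3, Cd300ld and Fgr followed that order too, as did 36 of the 95 features listed for BXD_H (37.9%). Mouse neutrophils and their precursors also express Chil3 and Fgr, as background. The part of neutrophils in the values of Chil3, Cd300ld and Fgr was not tested.

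Among other myeloid genes listed for BXD_H, Cd300lb, an activating receptor encoded in the same gene family as Cd300ld, stood at 1.27, 1.64 and 2.51 FPKM. Ccl8, a monocyte attractant, stood at 40.68, 58.07 and 52.78 FPKM, with no large spread between these libraries. Neither was set against DSS or Control. For Cd68, Ccr2, Cx3cr1, Fcgr1, Arg1 and Marco a BXD_H level was not analysed here, so the higher Chil3, Cd300ld and Fgr cannot be set beside a change of general macrophage markers under the decoction.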

How the data were processed

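Colon RNA of 12 libraries was deposited by the authors as FPKM with 2 decimals, 1 column a library, per the file headers. Per the submitters' processing notes, bcl2fastq, FastQC and fastp were used and the build is mm10. The sources used here do not give the aligner, counting program, strand use, annotation or how features were chosen for listing. FPKM corrects for gene length and library total, not for composition.

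Of 991 identifiers 981 matched GENCODE M21. Library totals were recovered, using features whose exons span less than 1200 bases (2000 for BXD_H), by scanning totals of 5 to 30 times 1000000 fragments for the one giving whole fragments, within rounding and at most 0.2 fragments. For DSS and Control 87.0 to 93.9% of 69 to 102 genes came out whole, and for BXD_H 70.8 to 95.0% of 20 to 24. For Control replicate 1 and BXD_H replicate 3 a total 2 times as large also fitted (96.5% and 83.3% whole) and the smaller was taken (93.9% and 70.8%). Fragment counts are thus approximate and assume the annotated exon lengths. The fragments behind a value under 1 FPKM vary with the value and the gene length. They were about 1 for Chil3 in Control replicate 1 (0.04 FPKM) and 50 for Fgr in Control replicate 3 (0.80 FPKM).

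Values were tested as log2(FPKM + 1), which understates changes of low genes, with limma 3.58.1 in R 4.3.3: a mean for each of the 4 groups, fitted to whichever of the 12 libraries hold a feature, a trended spread, two-sided p with Benjamini-Hochberg adjustment over all features tested in a comparison, and a threshold of 0.05. Tested features had FPKM 1 or more in at least 3 of the 12 libraries, also in the fits on the compared groups only. The fit was tested on simulated data. Single values were compared by exact permutation. Alternatives were a pseudocount of 0.1, no filter, the compared groups only, centring, each library left out, the 2 libraries of conflicting description left out, the groups of that text, and a replicate block. The members and lists were chosen with earlier results of these data known. Named were all members, from each list the genes of smallest adjusted p (at most 4), and the 2 nearest profiles of each tested member; other genes complete a list or were chosen with their values in view. No 2 libraries of the same group shared more than 25 equal values, and libraries of different groups were not compared in this way. For 1 further gene the values are not reported here, and it was left out of the list counts.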

Additional observations from a re-analysis of the deposited data

How the results depend on the processing

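Leaving out 1 library at a time gave 528 to 562 features past the threshold for DSS against Control, against 571, with 4 to 6 members among them, against 6. It gave 15 to 17 for BXD_H against DSS and 11 to 13 for BXD_H against Control, with 3 members each time. Without a filter 877 features passed for DSS against Control, since 912 were tested. Centring lowered changes by 0.81 (DSS against Control), 0.99 (BXD_H against DSS) and 1.85 (BXD_H against Control) on the log2 scale and left 188 and 4 features past the threshold in the first and second and 0 members in each. Its reversed changes were −0.27 for Chil3, −0.16 for Marco, −0.0598 for Cd300ld and −0.0444 for Fgr (DSS against Control), −0.0179 for Fgr (BXD_H against DSS), and −0.000627 for Cd300ld and −0.12 for Fgr (BXD_H against Control). These signs belong to the log2(FPKM + 1) scale, which understates changes of low genes. With groups from the description text 8 features and 0 members passed for DSS against Control, and 6 features and 1 member (Chil3) for BXD_H against DSS. Without the 2 libraries of conflicting description 502 features and 5 members passed for DSS against Control. The titles give each group replicates 1 to 3, but nothing in the labels pairs them, and deviations of same-numbered DSS and Control libraries correlated at −0.05 to 0.08 over 576 features. With a replicate block 570 features and 7 members passed for DSS against Control, and 8 features and 1 member (Chil3) for BXD_H against DSS. Other causes of these shifts were not tested. Depth limits Chil3, Arg1 and Marco, whose Control values rest on 12 fragments or fewer.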
